A study of Mus musculus with 3 samples.

Results

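Leptotene to early pachytene spermatocytes are the germ cells of the first part of meiotic prophase, and 788 of the 33038 deposited barcodes were taken as such cells. A barcode was first kept when it held at least 3000 unique molecular identifiers (UMIs, each standing for 1 captured transcript), at least 1000 genes, at most 10% mitochondrial UMIs, and under 2% of its UMIs in the protamine and transition protein genes Prm1, Prm2, Tnp1 and Tnp2. It was then counted as a spermatocyte of this stage when it held 0 UMIs of Stra8 and at least 3 UMIs in the sum of Meiob, Prss50, Rad51ap2 and Dmc1. That sum also had to exceed the sum of 4 spermatogonial genes (Uchl1, Kit, Crabp1, Dmrt1) and the sum of 5 later spermatocyte genes (Piwil1, Mybl1, Tdrd1, Ccna1, Aurka). The cells were thus selected on their own measured UMI counts, and levels of these genes are given as description and carry no test.

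The series compared testis cells of adult C57BL/6N mice, as the strain label has it, with and without a conditional knockout of Tex10, a gene of a nucleolar complex that takes part in ribosome assembly. There were 2 wildtype libraries of 1 mouse each, called wildtype replicate 1 and wildtype replicate 2, and 1 knockout library made from the pooled cells of 2 mice. All were droplet libraries that copy the 3′ end of each transcript, and values below are UMIs per 1000000 UMIs of the class (CPM), given in the order wildtype replicate 1, wildtype replicate 2, knockout library, to be compared between classes and libraries and not between genes. The Cre driver and the exons it removes are not given in the sources used here, and with 1 knockout library no knockout value has a replicate check.

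In leptotene, the chromosomes condense along axes built from cohesins, HORMA-domain proteins and SYCP2 and SYCP3, PRDM9 marks recombination hotspots, and SPO11 cuts the DNA. The strand-exchange protein DMC1, with helpers such as MEIOB, BRCA2 and the HOP2-MND1 pair, then search for the homologous chromosome, and in zygotene SYCP1 begins to zip the paired axes together. In pachytene the largely unpaired X and Y chromosomes are gathered in the sex body and transcriptionally silenced, a step called meiotic sex chromosome inactivation.

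The wildtype libraries gave 230 and 242 of these spermatocytes and the knockout library 316. They made up 11.2% (95% exact binomial interval 9.84 to 12.6) and 9.32% (8.23 to 10.5) of the 2060 and 2596 barcodes that passed the first filter in the wildtype libraries, and 12.05% (10.8 to 13.4) of the 2623 in the knockout library. The knockout share lay 1.80 percentage points above the wildtype mean of 10.2 ± 1.30% (SD, n = 2), and its interval overlapped that of wildtype replicate 1. An exact permutation of 1 library against 2 cannot give a p under 0.33, so the difference has no test. Counted against all deposited barcodes instead, the same cells came to 2.31%, 2.38% and 2.45%. Here the 95% exact interval of each library contained the values of the other libraries. The size of the knockout excess thus depended on which barcodes were counted. The difference in the share of passing barcodes grew to 4.59 points when barcodes needed at least 5000 UMIs. Under a mitochondrial limit of 5% it was 5.24 points, on 70 and 63 wildtype cells and 190 knockout cells. It was 1.53 points with each barcode thinned to 3000 UMIs, and 2.54 points when the meiotic genes of the rule needed at least 5 UMIs. Depth and mitochondrial content moved with it: the median cell held 6759 and 5940 UMIs in the wildtype pair and 9705 in the knockout library, and its mitochondrial share was 5.79%, 6.03% and 4.64%. Their part in the difference was not tested beyond these settings. The summed counts were 2075164, 1915166 and 3972544 UMIs, and 0 of these barcodes were shared between libraries.

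Few cells sat at the edge of the rule. The meiotic sum was exactly 3 in 6 and 15 wildtype cells and in 4 knockout cells, against medians of 9, 8 and 13. Only 1, 2 and 3 barcodes would have entered with a sum of 2. The Stra8 condition cut more cells away: 45, 41 and 58 barcodes met everything else but held a single Stra8 UMI. Neighbouring classes were cut by mirrored rules, namely cells with the same genes but with Stra8 detected (157, 172 and 219), Stra8-negative cells led by the spermatogonial sum (134, 135 and 143) and cells led by the later spermatocyte sum (1119, 1453 and 1278). A class of cells with smooth muscle, macrophage or Leydig transcripts (134, 124 and 175) served to show the level that free RNA gives in a droplet.

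The marker genes outside the rule, Sycp1 and Hormad1, were highest in these spermatocytes. Sycp1, which encodes the transverse filament of the synaptonemal complex (chromosome 3, 102818499 to 102936100 on GRCm38), stood at 2668, 2826 and 3254 CPM. In the later spermatocytes it stood at 398, 416 and 426 CPM, and in the class with somatic transcripts at 76.3, 147 and 47.4 CPM. Sycp1 was not used by the rule, and its lowest value in these spermatocytes lay above its values in each of the 4 other classes. Hormad1, the axis protein that promotes double-strand breaks and is removed at synapsis (chromosome 3, 95559677 to 95587671), reached 1194, 1107 and 1189 CPM, against 574, 468 and 567 CPM in the Stra8-positive class.

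Among the genes of the rule, Meiob and Rad51ap2 were highest in these cells. Meiob, a single-strand DNA binding protein of recombination foci, stood at 337, 375 and 361 CPM, against 101, 112 and 155 CPM in the Stra8-positive cells. Rad51ap2 stood at 364, 371 and 399 CPM there and at 205, 176 and 227 CPM in the Stra8-positive cells. Prss50 and Dmc1 had the opposite order. Prss50, a testis serine protease gene, stood at 371, 358 and 370 CPM in these cells but at 669, 677 and 614 CPM in the Stra8-positive ones, and Dmc1, the meiotic recombinase, at 185, 152 and 122 CPM here and at 336, 263 and 282 CPM there. In both cases the libraries of one class did not overlap those of the other. All 4 genes stood at or under 19.0 CPM in the later spermatocytes and at or under 15.7 CPM in the class with somatic transcripts.

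**Figure D1:**
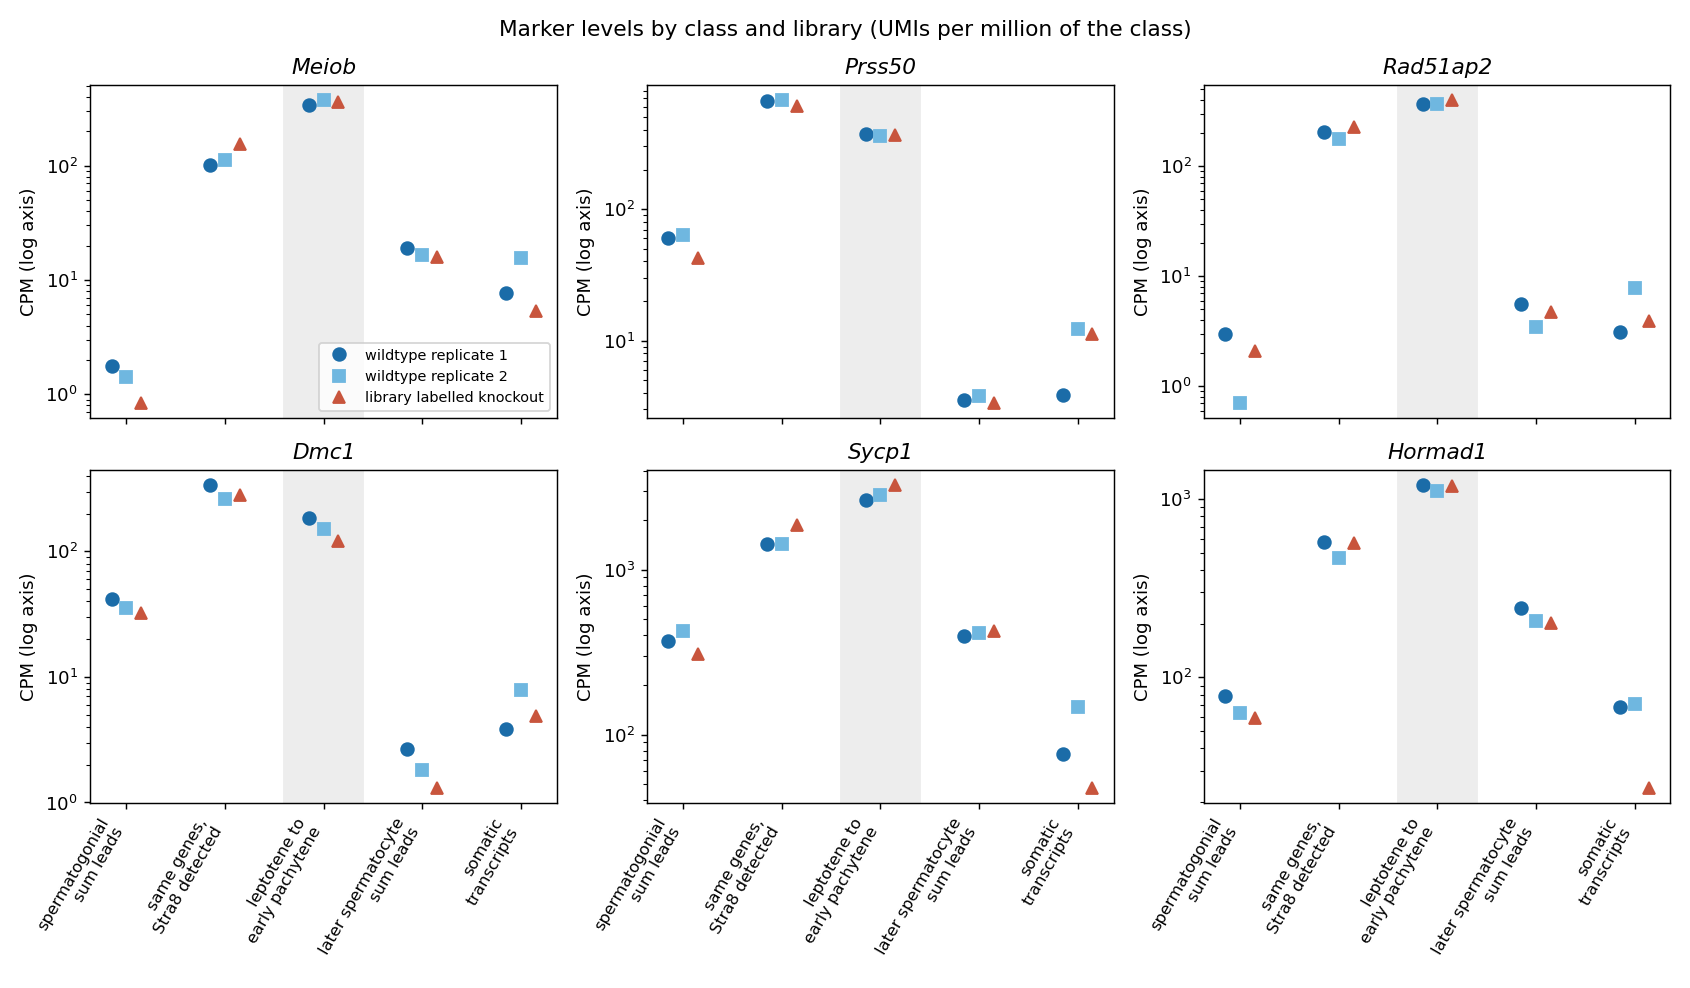
Levels of the 6 markers (CPM, log axis) in 5 classes of cells, with 1 point per library (circles and squares, wildtype replicates 1 and 2; triangles, knockout library) and the spermatocytes described here shaded. Meiob, Rad51ap2, Sycp1 and Hormad1 are highest in the shaded class, while Prss50 and Dmc1 are higher in the cells with Stra8 detected.

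RefSeq promoter sequences of GRCm38.p6 were found for 5 of the 6 markers. The 250 bases before the start site are shown for the 3 markers that hold a searched motif, and for Mov10l1, a piRNA-pathway helicase gene that helps to define the high end of the order of cells given below. Capitals mark matches on either strand to an E2F motif (GCGGGAA), the palindromic E-box CACGTG or a MYB motif (AACNGTT). A cAMP-response element (TGACGTCA) and a TATA box (TATAAA) were searched too, and the searched motifs overlap at none of the marked places.
Rad51ap2 (chr12:11455805-11456054, plus strand): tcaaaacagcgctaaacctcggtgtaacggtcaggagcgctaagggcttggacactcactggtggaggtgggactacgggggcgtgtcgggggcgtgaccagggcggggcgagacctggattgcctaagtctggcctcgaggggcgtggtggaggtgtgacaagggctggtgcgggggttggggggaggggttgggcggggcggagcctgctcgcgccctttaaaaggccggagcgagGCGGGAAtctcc
Sycp1 (chr3:102936101-102936350, minus strand): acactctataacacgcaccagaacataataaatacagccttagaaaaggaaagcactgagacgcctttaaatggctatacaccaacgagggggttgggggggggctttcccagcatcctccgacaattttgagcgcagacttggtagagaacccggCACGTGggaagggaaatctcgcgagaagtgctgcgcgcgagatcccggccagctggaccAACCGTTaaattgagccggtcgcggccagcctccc
Hormad1 (chr3:95559427-95559676, plus strand): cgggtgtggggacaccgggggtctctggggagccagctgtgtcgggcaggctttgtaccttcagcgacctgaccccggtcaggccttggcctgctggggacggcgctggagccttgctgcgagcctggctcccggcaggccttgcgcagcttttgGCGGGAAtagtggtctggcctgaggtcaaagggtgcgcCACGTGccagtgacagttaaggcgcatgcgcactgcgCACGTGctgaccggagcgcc
Mov10l1 (chr15:88982744-88982993, plus strand): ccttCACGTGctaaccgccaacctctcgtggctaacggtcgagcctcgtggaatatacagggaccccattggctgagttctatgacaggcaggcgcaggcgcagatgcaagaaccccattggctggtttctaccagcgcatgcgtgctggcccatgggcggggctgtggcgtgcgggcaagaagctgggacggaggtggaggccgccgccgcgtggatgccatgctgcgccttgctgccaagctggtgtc
The E2F motif begins 12 bases before the start site in Rad51ap2 and 95 in Hormad1, and the E-boxes 94 bases before it in Sycp1, 57 and 20 in Hormad1 and 246 in Mov10l1. Over 27025 promoter windows of the same length, 3.84% hold the E2F motif, 6.05% the E-box, 3.68% the MYB motif, 1.62% the cAMP-response element and 12.97% the TATA box. Of the 50 genes with a promoter among 59 of the meiotic lists used below, 11 held the E2F motif, 8 the E-box, 4 the MYB motif, 1 the cAMP-response element and 3 the TATA box. These are matches of letters and not measured sites.

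Transcripts of other cells were at a low or a free-RNA level, with a few exceptions. The list of 12 spermatogonial markers summed to 110, 108 and 98.4 CPM, against 508, 538 and 466 CPM in the cells led by the spermatogonial sum. Most of it came from Sohlh2, at 50.6, 40.7 and 45.6 CPM, and Id4, at 41.4, 46.5 and 36.0 CPM, while Sall4, Zbtb16, Gfra1, Nanos3 and Lin28a had between 0 and 3 UMIs in each library, where a count of 0 allows up to 1.45, 1.57 and 0.755 CPM (3 UMIs). Prm1, the protamine gene of elongating spermatids, stood at 2586, 2690 and 2364 CPM in these spermatocytes and at 2421, 2055 and 2323 CPM in the class with somatic transcripts, which should lack it. A list of 12 genes known for their onset in pachytene cells (among them Ldhc and Hspa2) summed to 3069, 3502 and 3185 CPM here. In that class it summed to 3085, 4271 and 1988 CPM, so the knockout value here lay above the one there. The list summed to 2228, 2403 and 2502 CPM in the Stra8-positive cells and to 14107, 13362 and 13139 CPM in the later spermatocytes. A list of 10 round spermatid genes summed to 661, 586 and 536 CPM here. In the class with somatic transcripts it summed to 453, 485 and 581 CPM, under the value here in both wildtype libraries. Single droplets carried somatic transcripts: 455 of the 489 UMIs of the Leydig list and 122 of the 143 of the myoid list in wildtype replicate 2 lay in 1 barcode each, and 175 of the 190 macrophage-list UMIs of the knockout library lay in 1 barcode. Of the macrophage markers, Csf1r was at 0 UMIs in every library. The summed Sertoli list of 10 genes stood at 1279, 692 and 805 CPM, against 1250, 1165 and 1771 CPM in the class with somatic transcripts, and 471 of its 1489 UMIs in wildtype replicate 1 lay in 1 barcode. In the Stra8-positive cells the Sertoli list summed to 424, 462 and 781 CPM, under the value here in each library.

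Outside the rule's genes, 3690 genes reached 50 CPM in these cells in each library. Of these, 953 stood higher here than in each of the 3 neighbouring germ cell classes in all libraries, 69 of them by at least 2-fold. The 10 with the largest margin are a description, since the classes were cut from the same cells. Leading was A830018L16Rik, at 72.8, 73.1 and 76.8 CPM against at most 9.33 CPM in a neighbouring class. Gml and Gml2, neighbouring genes of GPI-anchored Ly6-family proteins on chromosome 15, followed at 453, 490 and 449 CPM and at 213, 251 and 240 CPM. The closest neighbouring value was 94.3 CPM for Gml and 51.1 CPM for Gml2, both in later spermatocytes, and 30.2% of the 3′ end of Gml is shared with Gml2, so reads may have been divided between them.

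The other 7 genes had smaller margins. Ago2, the small-RNA-guided slicer, stood at 79.5, 66.8 and 83.3 CPM against at most 20.1 CPM in a neighbouring class. Rexo5, an RNA exonuclease, stood at 504, 512 and 568 CPM against at most 158 CPM. G3bp1, the core protein of stress granules, stood at 261, 237 and 251 CPM. Mnd1, a partner of HOP2 that helps DMC1 invade the homologue, stood at 178, 148 and 182 CPM, with 62.8% of its 3′ end shared with the pseudogene Mnd1-ps. Ccdc152, at 168, 178 and 182 CPM, the antisense transcript Gnasas1, at 64.1, 63.2 and 82.1 CPM, and Zfy2, a Y-linked zinc finger gene, at 81.0, 75.7 and 72.7 CPM, completed the 10. Of the 3′ end of Zfy2, 39.7% is shared, mostly with Zfy1. Gnasas1 is uncertain, because the use of strand in counting is not given in the sources used here.

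The next question was how the cells vary among themselves. An order was first taken from UMIs of 12 late genes as a share of those of 12 late and 12 early genes. The late list is the pachytene-onset list, whose sum lay under that of the class with somatic transcripts in both wildtype libraries. In the knockout library it lay above, and how much of it is free RNA was not tested. A second order was therefore chosen after seeing the data: the first principal component of the autosomal counts, with each cell thinned to 3000 UMIs and the rule's genes left out, cut into 5 equal parts by rank. It held 4.46% of the variance of 1000 variable genes. Its low end was led by Tex15, Zcwpw1, which binds PRDM9-marked chromatin, Hells, Smc1b, the meiotic cohesin subunit, and Nmt2, an N-myristoyltransferase gene. Its high end was led by Calm2, Cks2, Gml, Atp6v0b and Hsp90aa1. The component is a range without gaps, and 23, 43, 67 and 82 cells lay within 0.1 SD of its 4 cuts. Depth moved with it: Pearson's r with the log10 UMI total was 0.64, 0.55 and 0.60 over the 230, 242 and 316 cells, and its part in the order was not tested beyond the thinning.

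Single genes, picked after their values were seen, took different courses along this order. Dmc1 and Prss50, both genes of the rule, and Spo11 were not used by the component. Dmc1 stood at 578, 500 and 416 CPM in part 1, at 157, 149 and 156 CPM in part 2 and at 78.0, 65.9 and 77.7 CPM in part 5. Prss50 declined from 643, 708 and 741 CPM to 229, 226 and 258 CPM, and Spo11, the enzyme that makes the breaks, from 140, 106 and 202 CPM to 41.1, 46.3 and 36.8 CPM. In each of these 3 genes, the libraries of part 1 did not overlap those of part 5. Spo11 did not stay low, and stood at 84.5, 82.3 and 69.5 CPM in the later spermatocytes. Prdm9, which the component used, went from 151, 179 and 186 CPM to 0 UMIs in part 5 of every library, where 0 allows up to 4.11, 4.21 and 2.08 CPM.

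Other genes moved the other way. Mnd1 rose from 5.40, 28.5 and 18.9 CPM in part 1 to 253, 215 and 233 CPM in part 5, and Meiob from 251, 285 and 290 CPM to 442, 473 and 412 CPM. Sycp3, the lateral element of the synaptonemal complex, stood at 2258, 2164 and 2458 CPM in part 1 and at 4894, 4230 and 4812 CPM in part 3, near the level it kept in part 5 (4293, 3792 and 4141 CPM). Rad51ap2 was highest in part 4, at 515, 507 and 534 CPM. Piwil1, a pachytene piRNA-binding protein and one of the later genes of the rule, stayed at or under 48.3 CPM up to part 4 and reached 157, 230 and 138 CPM in part 5. The piRNA factors Tdrd9, Piwil2 and Mov10l1, picked from a list of 12 piRNA genes, also stood higher in part 5 than in part 1 in all libraries. Tex15, of the same list, led the low end of the component, and the list as a whole was not described along the order. Mov10l1 is among the leading genes of the component's high end, so its 1215, 1053 and 1198 CPM in part 5 against 219, 207 and 237 CPM in part 1 follow from how the order was built.

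**Figure D2:**
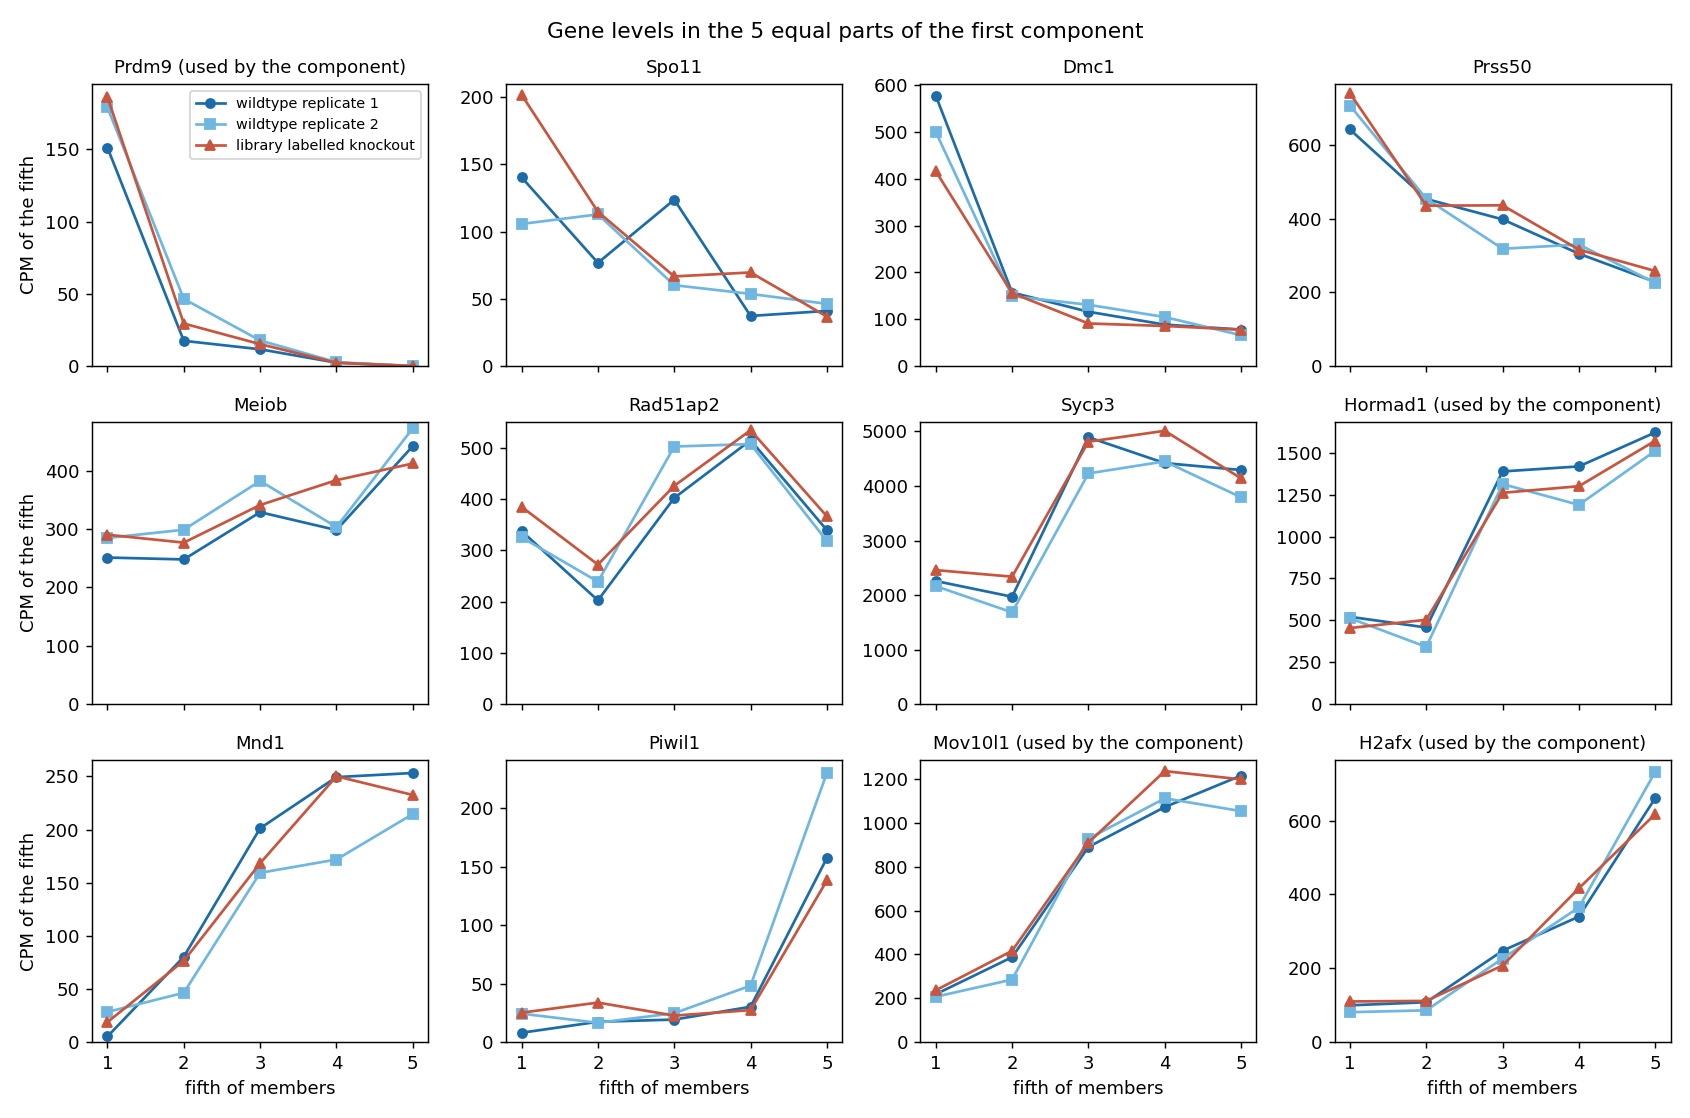
Levels (CPM of the part) of 12 genes in the 5 equal parts of the first component, with 1 line per library (circles and squares, wildtype replicates 1 and 2; triangles, knockout library). Prdm9, Dmc1 and Prss50 are highest in part 1 in each library, as is Spo11 except in wildtype replicate 2 (113 CPM in part 2), Sycp3 steps up between parts 2 and 3, and Piwil1 reaches 138 to 230 CPM in part 5.

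The same order separated cells by their sex chromosome transcripts, which it did not use. X-linked genes gave 2.10%, 2.13% and 2.05% of UMIs in part 1 and 2.31%, 2.14% and 2.23% in part 2. They gave 2.09%, 1.85% and 1.94% in part 3, then 0.892%, 0.864% and 0.646% in part 4 and 0.358%, 0.282% and 0.276% in part 5. The values of parts 4 and 5 lay below every value of parts 1 to 3 in all libraries. The Y-linked share went from 0.0829%, 0.0728% and 0.0738% in part 1 through 0.132%, 0.117% and 0.119% in part 3 to 0.0114%, 0.00519% and 0.00854% in part 5. Between parts 1 and 5 the ratio of the X-linked share was 0.170, 0.132 and 0.135, while that of each autosome lay between 0.874 (chromosome 16, knockout library) and 1.20 (chromosome 10, wildtype replicate 1). With each cell thinned to 3000 UMIs the mean difference over libraries was −1.76 percentage points, against −1.79 unthinned. Over whole classes, the X-linked share was 2.05%, 2.08% and 2.01% in the Stra8-positive cells, 1.26%, 1.16% and 1.11% in these spermatocytes and 0.376%, 0.494% and 0.455% in the later ones.

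**Figure D3:**
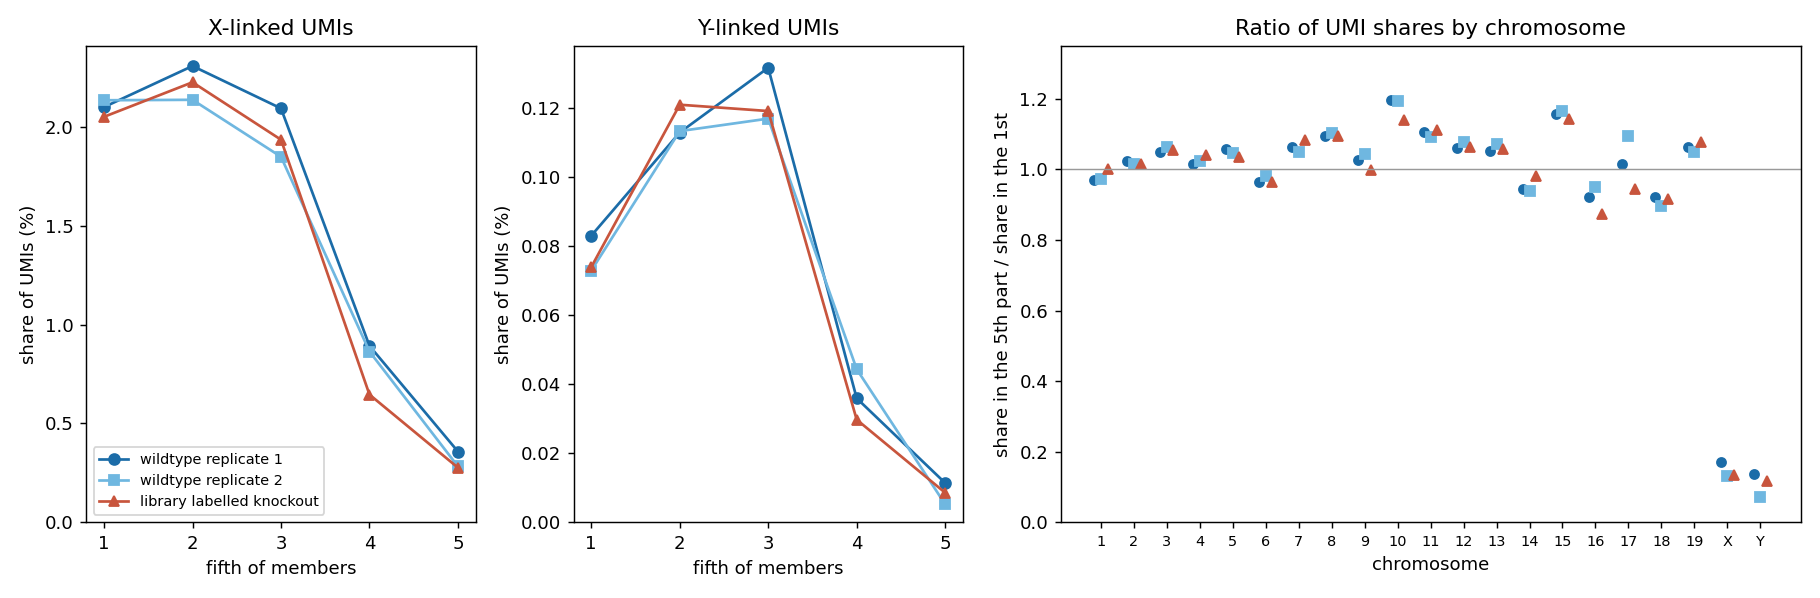
Share of UMIs (%) from X-linked (left) and Y-linked genes (middle) in the 5 parts of the first component by library, and the share in part 5 divided by that in part 1 for each chromosome (right). X and Y fall to ratios of at most 0.170 in each library, and the autosomes stay between 0.874 and 1.20.

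The fall ran through nearly the whole X chromosome. Of 159 X-linked genes with at least 20 CPM in part 1, 157 (98.7%) stood lower in part 5 in all 3 libraries and 136 (85.5%) stood below 0.5 times their level. Of 5684 autosomal genes past the same minimum, 2873 (50.5%) stood lower and 979 (17.2%) below 0.5 times. The 2 X-linked exceptions were Trap1a, at 51.3, 89.5 and 78.9 CPM in part 1 and 54.7, 33.7 and 52.7 CPM in part 5, and Rps4x, at 37.8, 24.4 and 22.1 CPM and 8.21, 36.5 and 6.94 CPM. They and the X-linked genes named next were picked after their values were seen.

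The X-linked genes did not share one course before the fall. Taf7l, a testis subunit of the basal transcription machinery, was highest in part 1, at 670, 716 and 688 CPM, and stood at 23.3, 2.80 and 9.72 CPM in part 5. Usp26, a deubiquitinase gene, was highest in part 2, at 499, 515 and 542 CPM against 254, 305 and 334 CPM in part 1, and fell to 9.58, 0 and 4.16 CPM in part 5. Scml2, a Polycomb protein gene with a role in sex chromosome chromatin, stood at 549, 556 and 426 CPM in part 3, at 79.2, 148 and 108 CPM in part 4 and at 6.84, 7.01 and 6.25 CPM in part 5. Tex11, a crossover factor gene, went from 135, 126 and 136 CPM to 6.84, 4.21 and 6.94 CPM. Some transcripts kept a larger share: Prdx4, a peroxidase of the endoplasmic reticulum, was at 462, 480 and 464 CPM in part 1 and at 272, 216 and 291 CPM in part 5. The protamine and transition protein genes gave 0.888%, 0.860% and 0.964% of UMIs in part 1 and 0.403%, 0.470% and 0.388% in part 5. How much of the Prdx4 count in part 5 is free RNA was not tested. On the Y chromosome, Zfy2, whose reads may be divided with Zfy1, stood at 18.9, 44.7 and 28.4 CPM in part 1, at 302, 234 and 208 CPM in part 3 and at 8.21, 0 and 5.55 CPM in part 5.

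Genes of the sex body machinery on autosomes were measured beside it. H2afx, the histone variant that is phosphorylated over the silenced chromosomes, was used by the component and stood at 99.9, 81.4 and 110 CPM in part 1 and at 661, 732 and 618 CPM in part 5. Mdc1, the adaptor that spreads this mark, was higher in part 5 within each library, at 287, 255 and 296 CPM against 232, 236 and 259 CPM, but the lowest value of part 5 lay below the highest of part 1. Atr, the kinase that places it, stood at 654, 651 and 618 CPM in part 1 and at 369, 381 and 521 CPM in part 5, lower in each library with no overlap.

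The libraries filled the order unevenly at its start. Part 1 held 28.3% (22.5 to 34.6) and 20.2% (15.4 to 25.9) of the cells in wildtype replicates 1 and 2 and 13.9% (10.3 to 18.2) in the knockout library. The knockout share lay 10.3 percentage points below the wildtype mean, the wildtype SD was 5.67, and its interval overlapped that of wildtype replicate 2. The knockout library was also the deepest, and depth ran with the component. When each barcode was thinned to 3000 UMIs before the rule was applied, the shares were 25.5%, 19.6% and 16.4%. By the list ratio, the share of the earliest of 3 parts differed by 0.681 points in the other direction. The other 4 parts held between 16.5% and 22.8% of the cells in every library.

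The study's own question, how the knockout differs, was asked with a fixed size rule. A gene passed when its log2 ratio of CPM + 1 was 1 or more in size, in 1 direction, to both wildtype libraries. The smaller ratio also had to be no less than 2 times that of the wildtype pair to each other, with 20 CPM or more in some library. Tex10 itself (chromosome 4, 48430858 to 48473459) stood at 142 (126 to 159) and 143 (127 to 161) CPM in the wildtype libraries and at 122 (111 to 133) CPM in the knockout library, on 295, 274 and 484 UMIs with 95% Poisson intervals that cover counting error only. Its log2 ratios were −0.22 and −0.23, it did not pass, and the intervals overlapped. A 3′ tag outside the deleted exons cannot check the label, and which exons were deleted is not given in the sources used here. Tex10 was at 189, 228 and 164 CPM in part 1 of the order and at 118, 111 and 98.6 CPM in part 5.

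By this rule 22 of 7153 genes (0.308%) passed in these spermatocytes, 9 higher (0.126%) and 13 lower (0.182%) in the knockout library, and the median log2 ratio of all genes was 0.02. Among them were Stmn1 higher and Rpl29, Gm8797, Gm10076 and Rpa3 lower.

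Stmn1 encodes stathmin, which destabilises microtubules (chromosome 4, 134468320 to 134473843). It rose from 488 and 452 CPM (470 ± 25.8, SD, n = 2) to 1064 CPM, with log2 ratios of 1.12 and 1.23. The wildtype values lay close together and the knockout value above them. In part 5 of the order it stood at 879, 885 and 1958 CPM, and in the Stra8-positive cells at 287, 248 and 628 CPM. Other genes carry 26.2% of its 3′ end. Its smaller ratio missed the limit at 0.85 after thinning to 3000 UMIs and at 0.79 under a mitochondrial limit of 5%.

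Rpl29, a protein of the large ribosomal subunit (chromosome 9, 106429454 to 106431568), fell from 870 and 851 CPM (861 ± 13.6, SD, n = 2) to 85.8 CPM, with log2 ratios of −3.33 and −3.29. The knockout value was low in each of the 5 parts of the order, between 34.7 and 104 CPM, where no wildtype value was under 419 CPM. The gap was not particular to these cells. Rpl29 stood at 1113, 1161 and 105 CPM in the cells led by the spermatogonial sum and at 672, 767 and 58.7 CPM in the Stra8-positive cells. It stood at 997, 996 and 106 CPM in the later spermatocytes and at 982, 1010 and 113 CPM in the class with somatic transcripts. Its level is uncertain, since other genes carry 57.7% of its 3′ end. Gm8797 (118 and 151 to 15.4 CPM) and Gm10076 (67.0 and 67.4 to 19.4 CPM) fell too, and 93.0% and 84.2% of their 3′ ends are shared with other genes, among them Gm1821 and Rpl41.

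Rpa3 encodes the smallest subunit of replication protein A, which coats single-stranded DNA in replication and recombination (chromosome 6, 8255936 to 8259173). It fell from 46.7 and 44.9 CPM (45.8 ± 1.30, SD, n = 2) to 19.6 CPM, on 97, 86 and 78 UMIs, with log2 ratios of −1.21 and −1.15. The knockout value was the lowest of the 3 in each of the 5 parts of the order, 18.9 against 59.4 and 65.1 CPM in part 1 and 18.7 against 32.8 and 32.3 CPM in part 5. The gap was not particular to these cells. Rpa3 stood at 79.7, 65.0 and 35.4 CPM in the cells led by the spermatogonial sum and at 104, 98.6 and 43.9 CPM in the Stra8-positive cells. In the later spermatocytes the knockout value was again the lowest. In the class with somatic transcripts Rpa3 stood at 17.7, 12.2 and 13.7 CPM, the knockout value between the wildtype ones. Other genes carry 15.5% of its 3′ end. Its smaller ratio missed the limit under a mitochondrial limit of 5%, at −0.92, and DESeq2 did not call it. The other subunits, Rpa1 at 16.9, 24.0 and 20.1 CPM and Rpa2 at 90.6, 101 and 93.6 CPM, did not pass.

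On chromosome 9, Prss45, a serine protease gene (110834588 to 110841313), rose from 17.3 and 17.8 to 45.3 CPM, and Gpr62, an orphan receptor gene (106463962 to 106465938), from 8.19 and 8.35 to 22.4 CPM. The antisense transcript Gm4665 rose from 3.37 and 3.66 to 27.9 CPM. These rises were not particular to these cells. In the later spermatocytes Prss45 stood at 62.1, 59.5 and 186 CPM, Gpr62 at 69.3, 61.4 and 165 CPM and Gm4665 at 1.08, 1.25 and 21.7 CPM. The knockout value of each was also the highest in the Stra8-positive cells and in the cells led by the spermatogonial sum. In the class with somatic transcripts that of Gpr62 lay between the wildtype values. On chromosome 4, Zfp982, a zinc finger gene, rose from 5.30 and 8.35 to 21.9 CPM and Bend5 from 5.30 and 8.35 to 20.4 CPM, while Col16a1, a collagen gene, fell from 19.3 and 24.0 to 2.77 CPM. In all, 10 of the 22 genes lay on chromosomes 4 and 9, which held 12.4% of the genes tested, a count taken after the positions had been seen.

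Some of the named genes stood otherwise in a neighbouring class. Alg1, a mannosyltransferase of N-glycan synthesis, fell from 35.7 and 44.9 to 14.9 CPM in these spermatocytes. It stood at 22.0, 20.5 and 31.6 CPM in the cells led by the spermatogonial sum. In the later spermatocytes it was lower in the knockout library, as here, at 3.72, 3.52 and 1.98 CPM. Zfp982, raised here, stood at 1.87, 5.33 and 3.82 CPM in the Stra8-positive cells. Gm4285, an antisense transcript that rose here from 9.64 and 9.40 to 20.4 CPM, stood there at 11.2, 6.22 and 5.25 CPM. The long noncoding RNA 1700001K23Rik fell here from 27.0 and 23.5 to 10.8 CPM and stood at 34.3, 50.1 and 48.2 CPM in the later spermatocytes. By contrast, another, 4933433G15Rik, was lower in the knockout library in both classes. It fell from 55.4 and 58.0 to 23.7 CPM here and stood at 81.3, 73.8 and 23.1 CPM there. Whether these differences between classes exceed the spread was not tested.

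In 2 calls, most of the UMIs of a library lay in 1 barcode. Of the 119 Cd74 UMIs in the knockout library 117 lay in 1 barcode, and of the 137 and 120 Ptgds UMIs in the wildtype libraries 77 and 80 lay in 1 barcode each. Both are genes of other cells, the MHC class II chaperone and a prostaglandin synthase. Eif3j2, at 2.41 and 0.522 CPM (5 UMIs and 1 UMI) against 37.8 CPM, shares 93.4% of its 3′ end with Eif3j1. The 3 lower genes outside the naming rule had smaller ratios between −1.01 and −1.02. Rpl29, Gm8797 and Gm10076 were the 3 of the 22 that kept the call under each alternative that gave a value. The edgeR quasi-likelihood test, in which the knockout library is assumed to vary like the wildtype pair, called 39 of 11154 genes (0.35%) at an adjusted p under 0.05, 15 of them among the 22. DESeq2 called 16 of 5315 (0.301%), 5 of them among the 22.

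**Figure D4:**
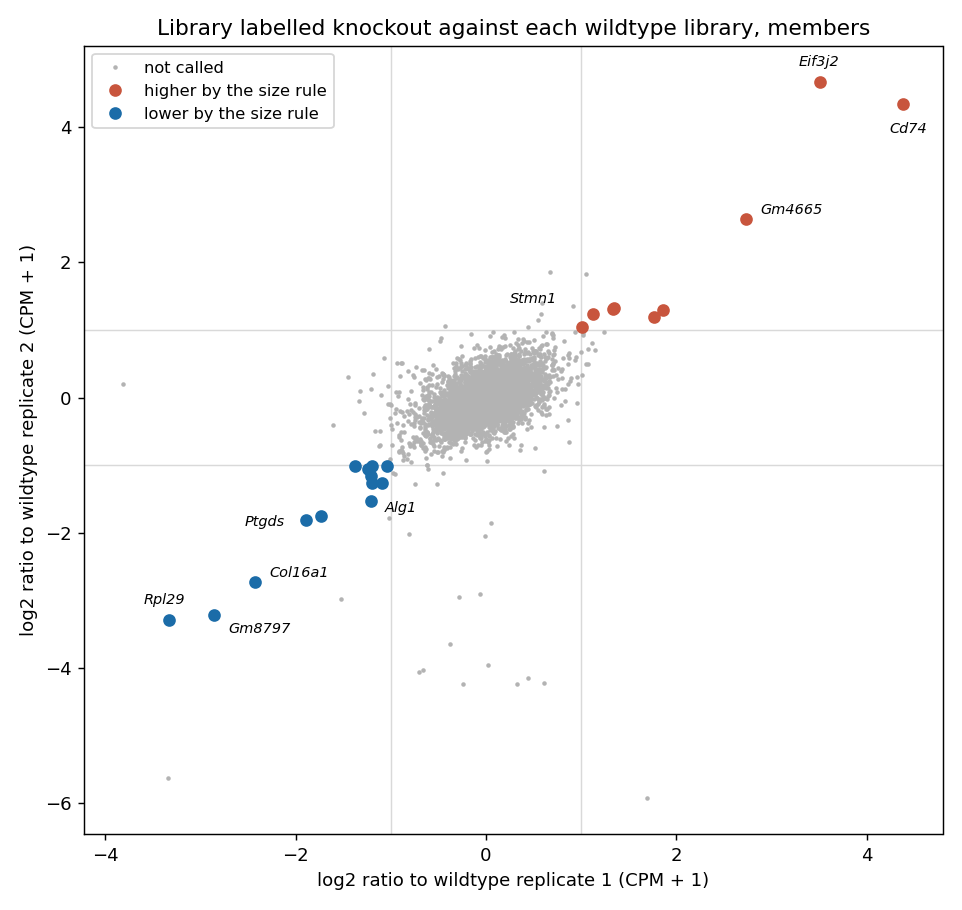
Log2 ratio (CPM + 1) of the knockout library to wildtype replicate 1 (x axis) and to wildtype replicate 2 (y axis) for the 7153 genes tested, with the 9 higher (red) and 13 lower (blue) genes enlarged and some named. Most genes lie near 0 on both axes, and the grey points low on the y axis alone are genes raised in wildtype replicate 2.

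The lists of meiotic genes were described next. Over 9 lists on recombination, chromosome structure and RNA control, 1 of 92 tested genes passed, Rpa3, beside 0.308% of all genes tested. At that background, lists of this size hold too few genes for a count of 0 or 1 to set them apart. In the synaptonemal complex list 0 of 8 tested genes passed, with a median log2 ratio of 0.07. Sycp3 stood at 3710, 3444 and 4001 CPM, Sycp1 at log2 ratios of 0.29 and 0.20, and Sycp2, the partner of SYCP3 in the lateral element, at 1064, 1087 and 1172 CPM. Syce3, of the central element, stood at 661, 665 and 698 CPM. Of the strand invasion and repair list 1 of 21 passed, with a median of −0.03. Swi5 stood at 1165, 1257 and 1128 CPM, and Brca2, which loads the recombinases, at 191, 202 and 153 CPM. Dmc1 had log2 ratios of −0.60 and −0.31. With the 5 parts of the order given equal weight its smaller ratio was −0.20, and under a mitochondrial limit of 5% it was 0.07. It was −0.37 with the 3 parts of the list ratio at equal weight and −0.38 without the top 8% of doublet scores.

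In the other lists the medians lay between −0.11 and 0.04. Of the break formation list 0 of 7 passed (median −0.11), with Zcwpw1 at 282, 260 and 250 CPM and Ankrd31, an organiser of break sites, at 266, 237 and 268 CPM. Of the cohesin list 0 of 7 passed (−0.08), with Smc1b at 906, 875 and 842 CPM and Stag3 at 249, 223 and 217 CPM. Of the list of the HORMA checkpoint and sex body 0 of 10 passed (0.04), with Atr at 467, 455 and 601 CPM. Telomere attachment genes (0 of 9, −0.07), crossover genes (0 of 10, −0.03), piRNA genes (0 of 11, −0.01), meiotic RNA control genes (0 of 9, 0.01) and replication genes (0 of 11, −0.09) also held no call. Spdya, an activator of CDK2 at telomeres, stood at 224, 252 and 226 CPM, Hfm1, a crossover helicase, at 178, 175 and 189 CPM, Ddx4, the germ cell RNA helicase, at 495, 551 and 525 CPM, Dazl, a translation regulator of germ cells, at 1773, 1802 and 1730 CPM, and Pcna, the replication clamp, at 203, 168 and 173 CPM.

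**Figure D5:**
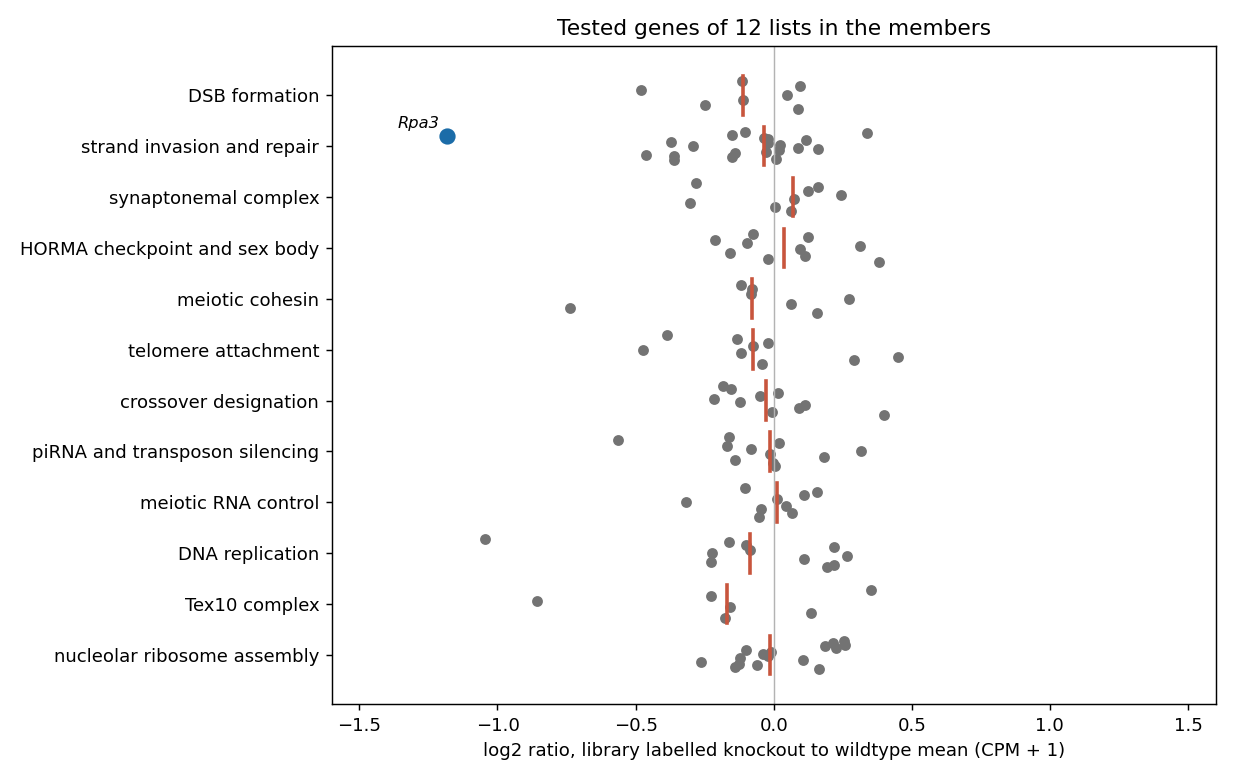
Log2 ratio (CPM + 1) of the knockout library to the wildtype mean for the tested genes of 12 lists, 1 point per gene, with the median of each list as a vertical bar. Rpa3, the larger blue point, is the 1 gene of these lists that passed the size rule, and all medians lie between −0.17 and 0.07.

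Genes near the targeted one in function were also listed. Of the Tex10 complex 0 of 6 tested genes passed, with a median of −0.17. Senp3, its SUMO protease, was lower at 90.1, 73.6 and 44.8 CPM, short of the 2-fold limit in both ratios (−0.99 and −0.70). Mdn1, the ATPase that remodels pre-ribosomes, stood at 162, 172 and 184 CPM, Wdr18 at 55.9, 61.1 and 75.0 CPM and Las1l at 54.9, 58.5 and 50.1 CPM. Of 16 nucleolar ribosome assembly genes 0 passed (median −0.01), among them Npm1 at 1568, 1474 and 1418 CPM and Ncl at 993, 1036 and 1091 CPM. Of 4 tested p53 target genes 0 passed (median 0.15), with Mdm2, the p53 ligase, at 174, 166 and 177 CPM. Among the somatic lists, the medians of −3.28 for the Leydig list (3 genes tested) and −3.20 for the myoid list (1 gene) came with the barcodes of wildtype replicate 2 named above. The macrophage list held the call of Cd74, its 1 tested gene.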

How the data were processed

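Single-cell suspensions of mouse testis were measured with 10x Genomics 3′ version 3.1 chemistry in 3 libraries, 2 wildtype and 1 knockout. The values the authors deposited are raw UMI counts per gene and barcode; the file headers name Cell Ranger 4.0.0, and the submitters' processing notes also name mm10 and, with no role given, Seurat 4.0.5. Whether counting used the strand is not given in the sources used here. Positions come from GENCODE M21 on GRCm38, which matched 32158 of 32285 gene identifiers. The spermatocytes, gene lists and rules were chosen with earlier results of these data known.

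UMIs of each class were added up within a library and scaled to CPM (Python 3.11.15, scanpy 1.11.5). Totals of 93418341, 96001773 and 147783171 UMIs lay in 9967, 10153 and 12918 barcodes. Intervals are 95% exact and cover counting error only. Doublets were kept: Scrublet's automatic threshold marked 16, 48 and 2 of the passing barcodes, and leaving out the top 8% of scores was an alternative. The knockout comparison used the fixed size rule with no p-value. edgeR 4.0.16 and DESeq2 1.42.0 on the 3 sums, with 1 residual degree of freedom, were alternatives. The edgeR test and a copy of the size rule were scored on simulated counts, and the DESeq2 result was not. Shared 3′ ends are the share of words of 31 bases in the last 500 bases of a gene's transcripts that occur in another gene.

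Named genes are those of the rule and its markers, Tex10, up to 10 higher and 10 lower genes with the largest smaller ratio, up to 4 genes per list with the highest mean level plus those that passed, and the 10 genes highest over the neighbouring classes. Genes named along the order of cells, and further list genes, were chosen after their values were seen. Some genes that these rules would name are not reported here.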

Additional observations from a re-analysis of the deposited data

How the results depend on the processing

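The alternatives for the component, and those without somatic-rich cells, were chosen after seeing the data. The count of 22 genes became 93 with a 1.5-fold threshold, 274 without a minimum CPM (which tests 20603 genes), 39 with edgeR and 35 under a mitochondrial limit of 5%, and 53 to 54 without 1 wildtype library (54 without wildtype replicate 1), which removes a condition of the rule. Of the 22, all were among the 54 and 21 among the 53. Under the other 11 settings it lay between 16 and 23, with 22 calls under TMM scaling and DESeq2 size factors and 16 with the DESeq2 test, 5 of them shared. Thinning each barcode to 3000 UMIs before the rule gave 13 higher and 9 lower. These calls held only 13 of the main 22, and those under the mitochondrial limit of 5% held 12 of them. The share of these spermatocytes differed by 4.59 points with at least 5000 UMIs and by 5.24 under the mitochondrial limit of 5%, and by 0.882 to 2.73 without 1 wildtype library. It differed by 1.53 points after thinning to 3000 UMIs, by 1.63 without the top 8% of doublet scores and by 2.54 with a meiotic sum of at least 5 UMIs. The earliest share of the order differed by −10.3 points by the component in place of 0.681, and the cause was not tested. Without wildtype replicate 2 the list-ratio difference was −4.40 and without wildtype replicate 1 it was 5.76. The smaller ratio of Ptgds reversed to 0.000155 after thinning to 3000 UMIs and to 0.35 under the mitochondrial limit of 5%, and that of Cd74 to −0.026 without the top 8% of doublet scores; single barcodes held most of their UMIs. The list calls stayed at 2 with a minimum of 5 CPM. No paired analysis was possible because the knockout group has 1 library of pooled mice, so the groups share fewer than 2 replicate numbers.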
